A study of Homo sapiens with 6 samples.

Results

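Glycolysis splits glucose into pyruvate and yields ATP and NADH without oxygen. In leukemia cells, as in most dividing cells, much of the pyruvate is reduced to lactate even when oxygen is present, which returns NADH to NAD+. The 10 genes described here encode an enzyme for nearly every step from glucose to lactate: HK2, GPI, PFKL, ALDOA, TPI1, GAPDH, PGAM1, ENO1, PKM and LDHA. They were found by symbol and are 10 of the 57820 genes in the deposited tables. GAPDH is also a common loading control for RNA and protein assays, so its level across libraries bears on how it serves as a reference.

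The 6 libraries were total RNA from SEM, a human B-cell acute lymphoblastic leukemia line, and both groups expressed OsTIR1(F74G) and carried endogenous CTCF fused to miniAID and mClover3. In all of them 5-Ph-IAA, an auxin analog, was given for 24 h to degrade that fusion protein, and 1 µg/mL doxycycline was present for the last 18 h, after 6 h of 5-Ph-IAA alone. CTCF-WT (CTCF AID2/WT, 3 libraries) was induced to make HA-tagged wild-type CTCF and CTCF-dRBR (CTCF AID2/dRBR, 3 libraries) HA-tagged CTCF without its RNA-binding region (RBR), from the doxycycline-driven TRE3G promoter. The genotype label of CTCF-WT names the fusion alone, so that group rests on its titles. Nothing in the labels says that the 3 libraries of a group came from separate cultures, so p-values measure only the spread between these libraries, which may be technical.

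Levels are given as CPM, the deposited expected counts per gene scaled to library size with TMM factors, which allow for libraries of different composition. The deposited TPM also divide by gene length. By limma-voom 14044 genes with at least 1 CPM in some library were tested, all 10 enzyme genes among them. The libraries held 51732177 to 53166735 counts in CTCF-WT and 30034505 to 50457168 in CTCF-dRBR, of which CTCF-dRBR replicate 1 was the smallest. That library stood apart from the rest: its Spearman correlations with the other 5 were 0.913 to 0.968. It lay at 102 on a first principal component that held 73.5% of the variance. The other 5 were spread along that component too. CTCF-WT replicates 1, 2 and 3 lay at −52.8, −45.7 and −9.15, and CTCF-dRBR replicates 2 and 3 at 19.5 and −13.7. The fold changes below are therefore also given without CTCF-dRBR replicate 1, which leaves the spread among the other 5. Of 10 B-lineage leukemia markers, 9 had a mean of at least 1 TPM, and DNTT, at 0.0617 TPM, did not. Summed TPM of T cell markers were 22.8 to 43.1 in CTCF-WT and 38.5 to 52.5 in CTCF-dRBR, nearly all from TRAC, and those of myeloid markers 4.18 to 6.23 and 5.78 to 6.70. Erythroid markers were at most 0.080, and 4 epithelial and stromal markers summed to 0.12 to 0.29 in CTCF-WT and 0.38 to 0.70 in CTCF-dRBR. PECAM1, also planned for that set, was not in the sum. The part of these markers in the results was not tested. CTCF itself, which takes counts from both the fusion and the induced gene, had 209.9 to 249 CPM in CTCF-WT and 252 to 273 in CTCF-dRBR.

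Sequences before a listed start of 4 of these genes are shown because these had lower levels in CTCF-dRBR on average, with LDHA the least. Glycolytic genes are also textbook targets of factors that bind ACGTG, the core of the hypoxia response element, and the E-box CACGTG, which contains it. Each is the 250 bases before the most upstream RefSeq start listed for the gene in GRCh38.p14, read 5′ to 3′ on the gene's strand. Matches to ACGTG on either strand are in capitals. The list may not hold every start of a gene, and its starts were not compared with the GRCh37 gene coordinates given below. A window can therefore lie inside a gene and miss its main promoter. HK2 lies at chr2:74833877-74834126 on the plus strand, GAPDH at chr12:6535014-6535263 on the plus strand, PKM at chr15:72231191-72231440 on the minus strand and LDHA at chr11:18394313-18394562 on the plus strand.
HK2: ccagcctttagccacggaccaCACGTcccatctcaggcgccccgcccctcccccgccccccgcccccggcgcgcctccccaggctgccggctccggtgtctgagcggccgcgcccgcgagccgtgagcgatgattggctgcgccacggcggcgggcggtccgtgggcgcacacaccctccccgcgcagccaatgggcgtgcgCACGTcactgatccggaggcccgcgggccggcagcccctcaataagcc
GAPDH: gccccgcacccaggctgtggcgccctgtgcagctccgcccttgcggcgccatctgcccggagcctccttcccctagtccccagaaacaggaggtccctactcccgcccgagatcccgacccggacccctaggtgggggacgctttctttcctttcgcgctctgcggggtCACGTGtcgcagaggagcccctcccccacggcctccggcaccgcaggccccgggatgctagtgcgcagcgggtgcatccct
PKM: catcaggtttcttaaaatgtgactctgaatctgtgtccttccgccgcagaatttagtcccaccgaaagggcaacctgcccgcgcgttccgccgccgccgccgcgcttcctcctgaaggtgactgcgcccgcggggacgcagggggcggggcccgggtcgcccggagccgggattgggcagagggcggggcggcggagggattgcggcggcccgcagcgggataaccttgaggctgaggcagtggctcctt
LDHA: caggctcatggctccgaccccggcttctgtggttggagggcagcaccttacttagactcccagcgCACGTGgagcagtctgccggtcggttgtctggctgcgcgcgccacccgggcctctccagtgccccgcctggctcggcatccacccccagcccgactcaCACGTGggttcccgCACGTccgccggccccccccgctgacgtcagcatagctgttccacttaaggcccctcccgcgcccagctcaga

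LDHA had matches that began 185, 184, 87, 86 and 73 bases before the start, where each adjacent pair is the palindrome CACGTG read on both strands. GAPDH had 1 such palindrome, at 81 and 80 bases, HK2 had single matches at 229 and 48 bases, and PKM had none in this window. The promoter set used here held 15 RefSeq starts for the 10 genes, all 10 matched by symbol. ACGTG was found before 9 of the 15 starts (6 of the 10 genes), against 18.5% of 35116 promoters of the same length. CACGTG was found before 4 of the 15 (ALDOA, GAPDH, HK2 and LDHA) against 6.35%, the GC box GGGCGG before 11 of the 15 (9 genes) against 42.6%, and TATAAA before 0 of the 15 against 10.7%. Both strands were searched for each. These are matches of letters in a window and no measure of binding. The counts, that of 0 for TATAAA included, hold for the listed starts only. The 35116 promoters were not matched to the enzyme genes for GC content. Whether the matches have a part in the levels below was not tested.

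Levels can be compared between genes only per length. In TPM rescaled to protein-coding genes, GAPDH had the highest level in CTCF-WT, 3684 to 3763, and HK2 the lowest, 35.0 to 39.3. By the mean of all 6 libraries the order was GAPDH, PKM, ENO1, ALDOA, TPI1, LDHA, PGAM1, GPI, PFKL and HK2. Most neighbours kept this order in 6 of 6 libraries. GAPDH was above PKM in 5 of 6, with CTCF-dRBR replicate 1 the exception, ALDOA was above TPI1 in 4 of 6, and TPI1 was above LDHA in 5 of 6. ALDOA and TPI1 overlapped in CTCF-WT, at 1125 to 1383 and 1069 to 1196 TPM.

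Transcripts of all 10 genes were lower on average in CTCF-dRBR than in CTCF-WT by CPM, where 50.6% of all genes tested were lower. In the deposited TPM, however, PKM, LDHA, ENO1 and PFKL were higher on average in CTCF-dRBR. After a GC trend was removed from the CPM, PKM and PFKL were also higher there, PKM by only 0.037 on the log2 scale. None passed a false discovery rate (FDR, the Benjamini-Hochberg adjusted p over all genes tested) of 0.05, as was so for 0% of all genes, since the smallest adjusted p of any gene was 0.0959. HK2, GPI, TPI1, PGAM1, ENO1 and PKM, 6 of the 10, were lower at an unadjusted p under 0.05, against 12.8% of all genes, and 0 higher, against 12.6%. In 7 of the 10, these 6 and ALDOA, no CTCF-dRBR library reached the lowest CTCF-WT library, as for 17.5% of all genes. The median log2 fold change of the 10 was −0.53, and that of all genes −0.0076. In bulk RNA, fewer cells of a type and less RNA per cell cannot be told apart. The genes share libraries, and 27 of their 45 pairs correlated above 0.9 over the 6 libraries, so the 10 are not independent observations.

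**Figure D1:**
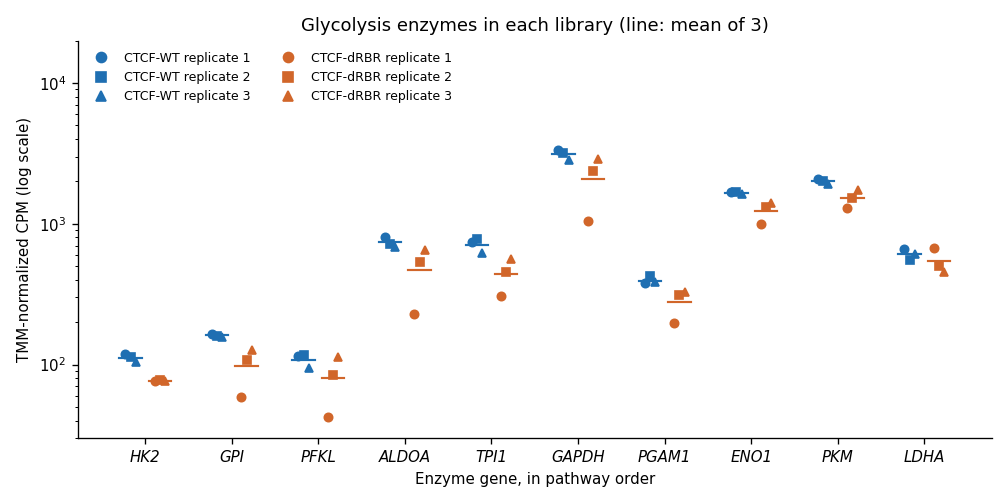
TMM-normalized CPM on a log axis of the 10 glycolysis enzyme genes in each of 3 CTCF-WT (blue) and 3 CTCF-dRBR (orange) libraries, with symbols for the replicate number and a line at each group's mean. CTCF-dRBR replicate 1 was lowest, or level with the lowest, in each gene but LDHA, and HK2 had nearly the same level in all 3 CTCF-dRBR libraries.

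The first phase of glycolysis spends ATP. HK2, a hexokinase that traps glucose in the cell by phosphorylating it, stood at 119, 112 and 105 CPM in the CTCF-WT libraries (given in the order of replicates 1, 2 and 3 here and for every gene) and at 76.8, 77.8 and 76.8 CPM in the CTCF-dRBR libraries. The groups did not overlap, and the CTCF-dRBR libraries agreed more closely with each other than did those of CTCF-WT, unlike in the other genes. The log2 fold change was −0.54 (SE 0.0905, 95% interval −0.75 to −0.32), with an unadjusted p of 0.000816 and an adjusted p of 0.0959 from limma-voom, the smallest among the 10 genes. Leaving out CTCF-dRBR replicate 1 again gave −0.54, with an adjusted p of 0.0424.

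GPI, which turns glucose-6-phosphate into fructose-6-phosphate, had 165, 161 and 158 CPM in CTCF-WT and 59.2, 108 and 126 CPM in CTCF-dRBR. The CTCF-WT libraries were close to each other and all above the CTCF-dRBR libraries, of which replicate 1 was the lowest. Its log2 fold change was −0.77 (SE 0.265, adjusted p = 0.165 from limma-voom), and −0.47 (adjusted p = 0.0475) without that library. PFKL, the liver-type subunit of phosphofructokinase, the enzyme of the committed step, had 114, 117 and 94.0 CPM in CTCF-WT and 42.8, 84.9 and 113 CPM in CTCF-dRBR. The groups overlapped, with CTCF-dRBR replicate 3 above CTCF-WT replicate 3. The log2 fold change of PFKL was −0.50 (SE 0.334, adjusted p = 0.324 from limma-voom), and −0.15 (adjusted p = 0.517) without CTCF-dRBR replicate 1.

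ALDOA, the aldolase that cleaves fructose-1,6-bisphosphate, had 812, 723 and 682 CPM in CTCF-WT and 228, 540 and 648 CPM in CTCF-dRBR. The groups did not overlap, but CTCF-WT replicate 3 and CTCF-dRBR replicate 3 were near each other, and the log2 fold change of −0.77 had an SE of 0.378 (adjusted p = 0.229 from limma-voom). It was −0.32 (adjusted p = 0.123) without CTCF-dRBR replicate 1. TPI1, which interconverts the triose phosphates that aldolase makes, had 738, 774 and 619 CPM in CTCF-WT and 309, 456 and 561 CPM in CTCF-dRBR, again without overlap. The log2 fold change of TPI1 was −0.72 (SE 0.226, adjusted p = 0.153), and −0.49 (adjusted p = 0.0770) without CTCF-dRBR replicate 1.

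The second phase recovers ATP and NADH. GAPDH, which oxidizes glyceraldehyde-3-phosphate and makes the NADH of the pathway, stood at 3345, 3161 and 2833 CPM in CTCF-WT against 1042, 2358 and 2868 CPM in CTCF-dRBR. CTCF-dRBR replicate 1 was far below the other 5 libraries, and CTCF-dRBR replicate 3 was above CTCF-WT replicate 3. The log2 fold change of GAPDH was −0.70 (SE 0.366, 95% interval −1.58 to 0.19), with an adjusted p of 0.248 from limma-voom. The exact permutation test of its CPM gave p = 0.2 (two-sided), where 0.1 is the smallest that 3 libraries against 3 allow. Without CTCF-dRBR replicate 1 the log2 fold change was −0.26 (SE 0.110, adjusted p = 0.168). An interval that reaches from −1.58 to 0.19 does not show that GAPDH was level between the groups.

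PGAM1, the phosphoglycerate mutase, had 379, 423 and 385 CPM in CTCF-WT and 197, 314 and 329.5 CPM in CTCF-dRBR. ENO1, the enolase that forms phosphoenolpyruvate, had 1679, 1691 and 1629 CPM in CTCF-WT and 991, 1318 and 1405 CPM in CTCF-dRBR. PKM, pyruvate kinase, which makes pyruvate and ATP, had 2097, 2030.2 and 1925 CPM in CTCF-WT and 1298, 1536 and 1727 CPM in CTCF-dRBR. In all 3 genes the groups did not overlap and CTCF-dRBR replicate 1 was the lowest library. The log2 fold changes were −0.53 for PGAM1 (SE 0.204, adjusted p = 0.185 from limma-voom), −0.44 for ENO1 (SE 0.144, adjusted p = 0.157) and −0.42 for PKM (SE 0.123, adjusted p = 0.148). Without CTCF-dRBR replicate 1 they were −0.30, −0.30 and −0.31, with adjusted p of 0.0797, 0.0640 and 0.0766.

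LDHA, the lactate dehydrogenase subunit that favors reduction of pyruvate to lactate, had 660.2, 553 and 609 CPM in CTCF-WT and 673, 500.4 and 455 CPM in CTCF-dRBR, so CTCF-dRBR replicate 1 was the highest of the 6 libraries and the groups overlapped. Its log2 fold change was −0.18 (SE 0.164, 95% interval −0.58 to 0.22, adjusted p = 0.450 from limma-voom). Leaving out CTCF-dRBR replicate 1 gave −0.35 (SE 0.104, adjusted p = 0.0945). LDHA was the only one of the 10 genes whose fold change was larger in size without that library by more than 0.1 on the log2 scale.

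**Figure D2:**
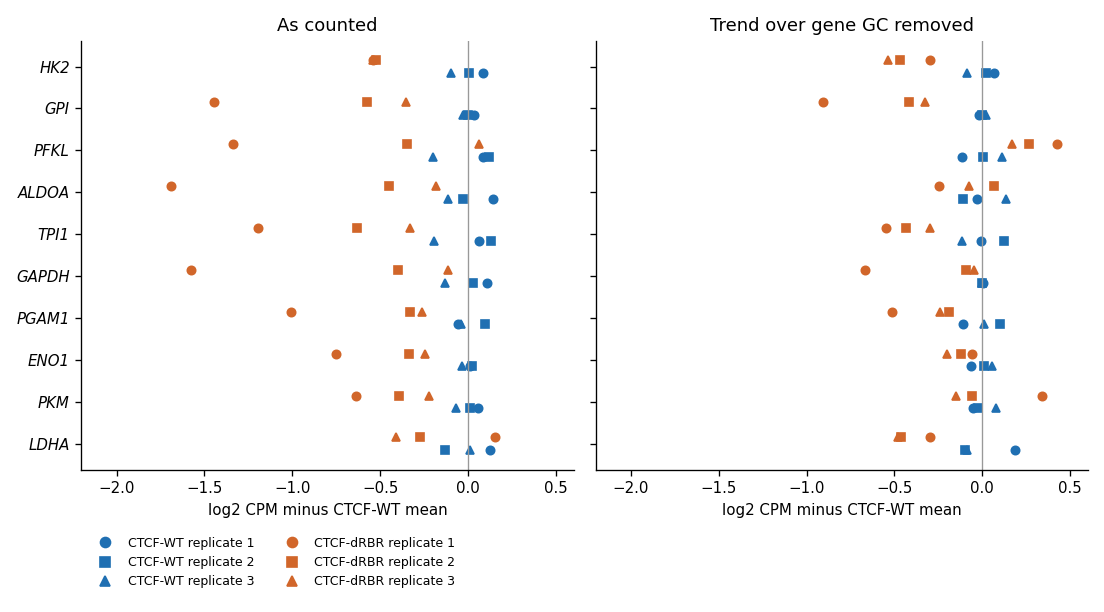
log2 CPM of each enzyme gene in each library minus the mean of the 3 CTCF-WT libraries, as counted (left) and after removal of each library's trend over gene GC content (right), with symbols for the replicate number. At left GAPDH in CTCF-dRBR replicate 1 lies at −1.58 and LDHA at 0.15; at right they lie at −0.67 and −0.30.

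Together the 10 genes took 0.943%, 0.941% and 0.926% of all counts in CTCF-WT replicates 1, 2 and 3 and 0.490%, 0.769% and 0.849% in CTCF-dRBR (two-sided exact permutation p = 0.1, the smallest possible). Their share of the deposited TPM was 0.319%, 0.384% and 0.561% in CTCF-WT and 0.400%, 0.511% and 0.449% in CTCF-dRBR, higher on average in the latter (p = 0.7 by the same exact test). Because each fold change without CTCF-dRBR replicate 1 compares 2 libraries with 3, the spread of the CTCF-dRBR group then rests on a single pair. Without it, HK2 and GPI passed FDR < 0.05 and 8 of the 10 genes were lower at an unadjusted p under 0.05, against 2.37% and 16.6% of all genes. The median of the 10 genes was then −0.32. DESeq2 with all 6 libraries passed HK2 and PKM, and 6.14% of all genes as lower. voomWithQualityWeights, which weights each library by its fit, passed all 10 as lower, as it did 35.8% of all genes. It gave CTCF-WT replicates 1, 2 and 3 weights of 1.26, 5.65 and 0.496, and those of CTCF-dRBR 0.0969, 6.19 and 0.472. That fit therefore rests mostly on replicate 2 of each group. edgeR's quasi-likelihood test passed 0 of the 10, with 6 at an unadjusted p under 0.05.

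GC content moved with the fold change over all genes. Spearman's rho of log2 fold change with the GC content of the canonical transcript was −0.69 over 13654 genes and −0.49 without CTCF-dRBR replicate 1. Genes are not independent replicates, so this is a description. With the genes divided by GC content into 10 bins of equal size, the median log2 fold change was 0.34 in the lowest bin and −0.77 in the highest. Among the enzyme genes LDHA had the lowest GC content, 41.8%, followed by HK2 at 50.5%, and PFKL had the highest, 63.4%. The other 7 lay between 52.7% (PGAM1) and 60.5% (ALDOA), and GAPDH had 56.1%. Within genes of like GC content, LDHA, HK2 and GPI were low: only 7.55%, 7.99% and 7.25% of the genes in their bin had a lower fold change. GAPDH had 19.7% of its bin below it, and PKM 45.0%. PFKL was high within its bin, with 74.7% below it.

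**Figure D3:**
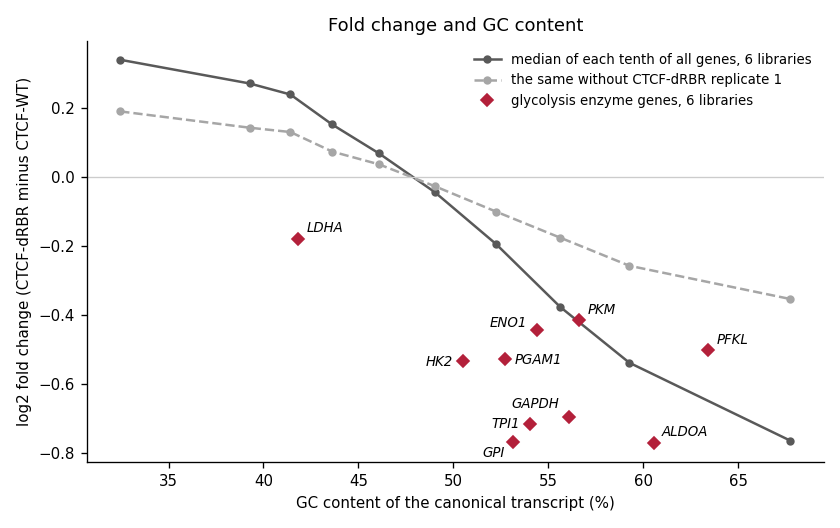
log2 fold change (CTCF-dRBR minus CTCF-WT) against GC content of the canonical transcript in percent: grey points and lines are medians of 10 GC bins of all genes with all 6 libraries (solid) and without CTCF-dRBR replicate 1 (dashed), and red diamonds are the enzyme genes with all 6 libraries. LDHA at 41.8% GC lies below a median of 0.24 in its bin, and PFKL at 63.4% GC lies above a median of −0.77.

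With the GC trend removed from each library, HK2, TPI1 and LDHA were lower in CTCF-dRBR and passed FDR < 0.05, as did 5.29% of all genes as lower. HK2 fell by 0.45 on the log2 scale (SE 0.0844, adjusted p = 0.0307 from limma), TPI1 fell by 0.43 (SE 0.0909, adjusted p = 0.0390) and LDHA fell by 0.42 (SE 0.0996, adjusted p = 0.0489). After this step all 3 CTCF-dRBR libraries of LDHA were 0.30 to 0.48 below the CTCF-WT mean, CTCF-dRBR replicate 1 included. GPI had −0.54 (adjusted p = 0.0634) and PGAM1 −0.32 (adjusted p = 0.0996). GAPDH had −0.28 (SE 0.164, adjusted p = 0.290), with CTCF-dRBR replicates 2 and 3 only 0.093 and 0.050 below the CTCF-WT mean and replicate 1 at 0.67 below. ENO1 had −0.13 and ALDOA −0.091, with adjusted p of 0.213 and 0.586. The sign turned for PFKL, 0.27 (adjusted p = 0.106), and for PKM, 0.037 (adjusted p = 0.869). The median of the 10 genes was −0.30. With the trend removed and CTCF-dRBR replicate 1 left out, GPI, HK2, LDHA and TPI1 passed, at −0.37, −0.50, −0.47 and −0.36, as did 13.6% of all genes as lower.

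**Figure D4:**
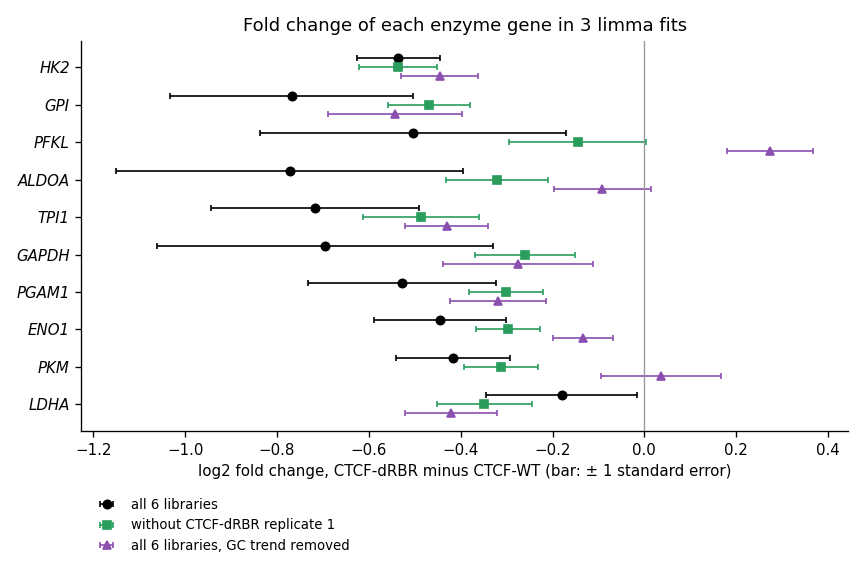
log2 fold change (CTCF-dRBR minus CTCF-WT) of each enzyme gene with a bar of 1 standard error, from limma with all 6 libraries (black), without CTCF-dRBR replicate 1 (green) and with the GC trend removed (purple). HK2 lies between −0.54 and −0.45 in the 3 fits, while PFKL runs from −0.50 to 0.27.

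The deposited TPM gave other directions for some of the genes. Protein-coding genes held 30.2% to 63.2% of a library's TPM, and the median log2 fold change of all genes tested was 0.40 on the log2(TPM + 1) scale, so enzyme genes near 0 on that scale were below most genes. GAPDH had 1114, 1348 and 1969 TPM in CTCF-WT and 839, 1862 and 1722 in CTCF-dRBR, which differed by less than the spread (two-sided exact permutation p = 1). PKM had 523, 636 and 976 TPM in CTCF-WT and 1402, 983 and 747 in CTCF-dRBR (two-sided exact permutation p = 0.2), higher on average where its CPM were lower. Rescaled to protein-coding genes, 9 of the 10 were lower on average and PKM was not, at 1789 TPM in CTCF-WT and 1913 in CTCF-dRBR (two-sided exact permutation p = 0.7).

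TPM divide counts by an effective length that RSEM sets in each library from the isoforms it assigns. Counts per TPM of PKM, relative to the median protein-coding gene of the library, were 0.84, 0.82 and 0.80 in CTCF-WT and 0.45, 0.71 and 0.80 in CTCF-dRBR. PKM has 25 annotated transcripts of 457 to 3016 bases in the lifted Gencode annotation. PFKL had 1.05 in CTCF-dRBR replicate 1 and 1.302 to 1.39 in the other 5 libraries. GAPDH ranged from 0.57 to 0.63 in all 6. Isoform levels, such as those of the alternatively spliced PKM forms, were not analysed here.

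**Figure D5:**
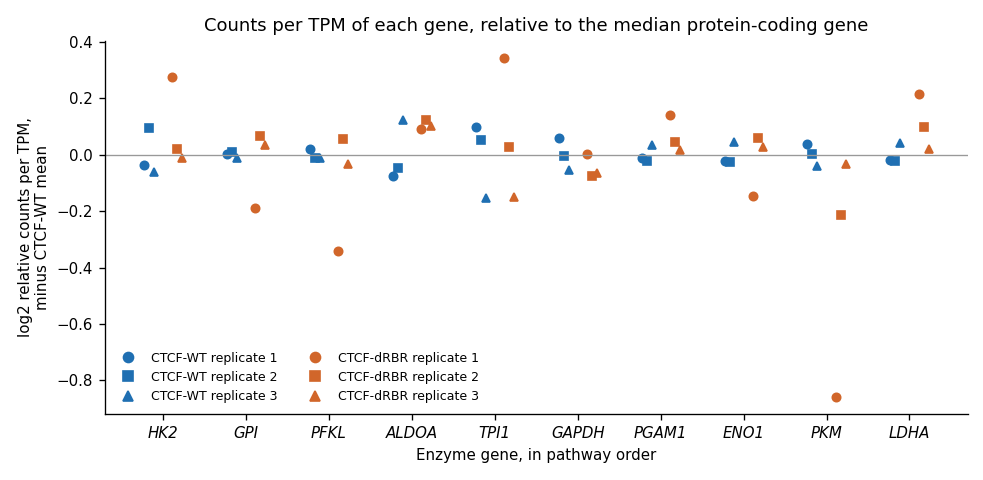
log2 of counts per TPM of each enzyme gene relative to the median protein-coding gene of the same library, minus the mean of the 3 CTCF-WT libraries, with symbols for the replicate number. PKM in CTCF-dRBR replicate 1, with relative counts per TPM of 0.45, lies lowest of all points.

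Ratios of the other 9 genes to GAPDH within a library remove a change shared by all. None of the 9 ratios separated the groups, and the smallest unadjusted p was 0.2 (exact permutation test of log2 ratios, adjusted p at least 0.9 over the 9). CTCF-dRBR replicate 1 was apart in several. Its log2 ratio of LDHA to GAPDH was −0.63, where the other 5 libraries had −2.66 to −2.22, and its log2 ratio of PKM to GAPDH was 0.32, where the others had −0.73 to −0.56. Leaving that library out turned the difference in mean log2 ratio (CTCF-dRBR minus CTCF-WT) from 0.52 to −0.088 for LDHA, from 0.28 to −0.052 for PKM, from 0.25 to −0.036 for ENO1, from 0.16 to −0.040 for PGAM1 and from 0.16 to −0.28 for HK2. The other 4 kept their sign, with TPI1 at −0.23 and GPI at −0.21. ALDOA kept close to GAPDH, at −2.19 to −2.04 in all 6 libraries.

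Other enzymes of the same steps were listed as well, and 11 of 19 were tested. Of these, 0 passed FDR < 0.05 by limma-voom or edgeR, and 1 passed as lower by DESeq2, as did 6.14% of all genes. At an unadjusted p under 0.05, 2 were lower by limma-voom and by edgeR, against 12.8% of all genes by limma-voom. On average 7 were lower and 4 higher, and their median log2 fold change was −0.26. PGK1, the phosphoglycerate kinase between GAPDH and PGAM1, had 745, 744 and 725 CPM in CTCF-WT and 515, 653 and 636 CPM in CTCF-dRBR, with a log2 fold change of −0.30 (SE 0.114, unadjusted p = 0.0357, adjusted p = 0.182 from limma-voom). PGAM4, a copy of PGAM1 at 3.04 ± 0.65 CPM (SD, n = 3) in CTCF-dRBR and 5.54 ± 0.96 in CTCF-WT, had −0.84 (adjusted p = 0.139). The platelet and muscle phosphofructokinase subunits PFKP and PFKM had −0.37 and −0.33, with adjusted p of 0.203 and 0.220. ADPGK, an ADP-dependent glucokinase, had −0.26, ENO3, the muscle enolase, −0.36, and HK1, the widely expressed hexokinase, −0.11. LDHB, the subunit that favors lactate oxidation, had 937, 921 and 978 CPM in CTCF-WT and 1103, 895 and 892 CPM in CTCF-dRBR, with a log2 fold change of 0.019 (SE 0.111). ALDOC and BPGM, a second aldolase and the mutase that makes 2,3-bisphosphoglycerate, had 0.19 and 0.25. With CTCF-dRBR replicate 1 left out, the log2 fold changes were −0.20 for PGK1, −0.70 for PGAM4, −0.23 for PFKP, −0.19 for PFKM, −0.13 for ADPGK, −0.23 for ENO3, 0.35 for ALDOC and 0.086 for BPGM. Those of HK1 and LDHB turned, to 0.12 and −0.086, and none of the list passed FDR < 0.05. The direction of the list turned with the GC trend removed, with 5 genes lower and 6 higher and a median of 0.056. In that fit ALDOC was higher (0.54, adjusted p = 0.0198 from limma) and PGAM4 lower (−0.77, adjusted p = 0.0446), where 9.38% of all genes passed.

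Among glucose, lactate and partner transporters, 7 of 8 were tested and 0 passed by limma-voom, edgeR or DESeq2. By limma-voom 1 was lower at an unadjusted p under 0.05, against 12.8% of all genes. SLC2A1, the glucose transporter GLUT1, had 44.6, 41.3 and 35.8 CPM in CTCF-WT and 11.5, 26.0 and 32.7 CPM in CTCF-dRBR, with a log2 fold change of −0.85 (unadjusted p = 0.0457, adjusted p = 0.192 from limma-voom). BSG, the chaperone of lactate transporters, had −0.84 (adjusted p = 0.212), and the lactate exporter SLC16A3 −0.97 (SE 0.598, adjusted p = 0.299). Among regulatory enzymes 4 of 9 were tested and 0 passed by any of these tools. At an unadjusted p under 0.05, 1 was lower by limma-voom, against the same 12.8% of all genes. It was PCK2, the mitochondrial phosphoenolpyruvate carboxykinase, at −0.92 (adjusted p = 0.186). PFKFB3 and PFKFB4, which set fructose-2,6-bisphosphate, had −0.29 and 0.35 (adjusted p = 0.464 and 0.379). With CTCF-dRBR replicate 1 left out, the log2 fold changes of SLC2A1, BSG, SLC16A3 and PCK2 were −0.47, −0.41, −0.39 and −0.55, with adjusted p of 0.0926 to 0.518, and those of PFKFB3 and PFKFB4 were −0.036 and 0.60, with adjusted p of 0.886 and 0.0717. With the GC trend removed, SLC2A1, BSG, SLC16A3 and PCK2 had −0.63, −0.079, −0.14 and −0.38, with adjusted p of 0.0730 to 0.686 from limma. PFKFB3 had 0.068 in that fit, and PFKFB4 rose by 0.76 on the log2 scale (adjusted p = 0.0269), the only regulatory enzyme to pass. Of the transporters SLC16A7 alone passed there, as lower (−0.61, adjusted p = 0.0266), where 9.38% of all genes passed.

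Of the genes of pyruvate entry into mitochondria, 13 of 14 were tested and 8 of the 13 were higher on average, with a median log2 fold change of 0.020. None passed by limma-voom, edgeR or DESeq2, and 1 was higher at an unadjusted p under 0.05, against 12.6% of all genes by limma-voom. The balance turned in other fits: 7 were lower and 6 higher without CTCF-dRBR replicate 1, and 8 lower and 5 higher, with a median of −0.14, with the GC trend removed. In the latter fit DLAT, a subunit of pyruvate dehydrogenase, passed FDR < 0.05 as lower (−0.30, adjusted p = 0.0471 from limma), as did 5.29% of all genes. PDK1, which inhibits pyruvate dehydrogenase, had 45.9, 50.5 and 49.5 CPM in CTCF-WT and 77.2, 65.05 and 54.3 CPM in CTCF-dRBR, with a log2 fold change of 0.40 (adjusted p = 0.175 from limma-voom). MPC2, a subunit of the mitochondrial pyruvate carrier, had 0.23, and PDP1, the phosphatase that activates pyruvate dehydrogenase, 0.29, with adjusted p of 0.219 and 0.227. PDK1, MPC2 and PDP1 had 0.29, 0.15 and 0.17 without CTCF-dRBR replicate 1, and 0.12, 0.020 and 0.021 with the GC trend removed. Of 18 genes of the hypoxia pathway 15 were tested, with 7 lower and 8 higher on average. Past FDR < 0.05 there were 0 by limma-voom or edgeR (3 lower and 5 higher at an unadjusted p under 0.05 in each, against the 12.8% and 12.6% of all genes by limma-voom) and 4 by DESeq2, which passed 11.5% of all genes. HIF1AN, the hydroxylase that restrains HIF1A, had 75.9, 68.4 and 57.4 CPM in CTCF-WT and 36.9, 38.8 and 39.4 CPM in CTCF-dRBR, with a log2 fold change of −0.80 (SE 0.133, adjusted p = 0.0959 from limma-voom). BNIP3L, a mitophagy receptor, had 142, 151 and 159 CPM in CTCF-WT and 311, 235 and 209.8 CPM in CTCF-dRBR, with a log2 fold change of 0.72 (adjusted p = 0.114), and EGLN1, a prolyl hydroxylase, had 0.38 (adjusted p = 0.142). HIF1AN fell by 0.78 and BNIP3L rose by 0.56 on the log2 scale without CTCF-dRBR replicate 1, both with an adjusted p of 0.0426 from limma-voom, where 3.90% of all genes passed, and EGLN1 had 0.33. After removal of the GC trend HIF1AN, BNIP3L and EGLN1 had −0.86, 0.38 and 0.30, with adjusted p of 0.0227, 0.0198 and 0.0528 from limma. The list then had 8 lower and 7 higher and a median of −0.043, with 3 past FDR < 0.05 as higher and 2 as lower, where 9.38% of all genes passed.

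Among the genes whose log2 CPM followed GAPDH most closely over the 6 libraries, of 8716 protein-coding genes with a mean of at least 10 CPM, were SSR4, SMARCD1, PGAP2 and CD81, with Pearson's r of 0.999 each. Their log2 fold changes were −1.004, −0.27, −0.89 and −1.05. ALDOA ranked 23 of the 8716 (r = 0.998), HK2 had r = 0.63 and LDHA r = −0.37. Without CTCF-dRBR replicate 1, over 5 libraries, r was 0.989 to 0.998 for those 4 genes, 0.98 for ALDOA and 0.80 for HK2, and turned to 0.58 for LDHA. These are descriptions over few libraries, and no p was computed.

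Reads can be shared with copies and overlapping genes, and coordinates in GRCh37 are from the lifted Gencode annotation. GAPDH (ENSG00000111640.10, chromosome 12, 6643678 to 6647540, plus strand) shares 19.3% of the 100-base windows of its canonical transcript with the antisense RP5-940J5.9, which had 1.29 to 2.89 CPM. The tables are named as stranded, but how the counting used strand is not stated. PGAM1 (ENSG00000171314.8, chromosome 10, 99185948 to 99193201, plus strand) shares 46.2% of its windows with 4 other genes, mostly the pseudogene RP11-887P2.3 at 6.11 to 15.7 CPM, so its counts are the least certain of the 10. TPI1 (ENSG00000111669.10, chromosome 12, 6976283 to 6980112, plus strand) shares 9.03% with TPI1P1, and overlaps SPSB2 on the other strand. GPI (ENSG00000105220.10, chromosome 19, 34850385 to 34893318, plus strand) shares 8.57% with RP11-618P17.4, which overlaps it on the same strand. HK2 (ENSG00000159399.5, chromosome 2, 75061254 to 75120486, plus strand) shares 2.80% with HK2P1, and LDHA (ENSG00000134333.9, chromosome 11, 18416107 to 18429972, plus strand) 0.607% with LDHAP4. ENO1 (ENSG00000074800.9, chromosome 1, 8921059 to 8939249, minus strand), PKM (ENSG00000067225.13, chromosome 15, 72491370 to 72524160, minus strand), ALDOA (ENSG00000149925.12, chromosome 16, 30075485 to 30081778, plus strand) and PFKL (ENSG00000141959.12, chromosome 21, 45719934 to 45747259, plus strand) share 0 windows. ENO1 overlaps ENO1-AS1 on the other strand and LDHA overlaps AC084117.3 on its own, both at most 0.33 CPM. Counts of pseudogenes named after a member, PGAM4 included, came to at most 4.41% of the member's own, for TPI1. The largest by mean count were GAPDHP1 for GAPDH, ENO1P1 for ENO1, PKMP3 for PKM and ALDOAP2 for ALDOA, and each set was under 0.5% of the member.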

How the data were processed

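The authors trimmed the reads with Trim Galore (version 0.6.3), aligned them to GRCh37 (hg19) with STAR (version 2.7.9a) and estimated gene expression with RSEM (version 1.3.1). The deposited expected counts are not normalized, and the deposited TPM were scaled by the authors over all genes, small RNAs included. Here, genes with less than 1 CPM in each library were left out, TMM factors came from edgeR (version 4.0.16), and the test was limma-voom (version 3.58.1 of limma in R 4.3.3), as in the methods of the paper. Tests were two-sided, with Benjamini-Hochberg adjustment over all genes tested and a threshold of 0.05. Single values were compared by exact permutation tests. A trend over GC content was removed by loess (span 0.5, degree 2) on log2 CPM with a prior count of 1. The loess used the GC content of canonical transcripts, found for 97.2% of the genes tested. DESeq2 (version 1.42.0) and edgeR used rounded counts. Other alternatives were voomWithQualityWeights, other normalizations and filters, limma-trend with pseudocounts of 1 or 0.1 added to TPM before log2, removal of a length trend, each library left out in turn and a replicate block. The fits were also run on simulated counts, which had no GC trend and no library that stood apart. That run therefore cannot show how the fits handle either of these. Plots used matplotlib (version 3.10.9).

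The enzymes and the other gene lists were chosen with earlier results of these data known. The genes named were the 10 enzymes, other enzymes of their steps with a mean of at least 1 TPM, the 3 genes with the smallest unadjusted p in each further list, the pseudogene of each enzyme with the largest mean count, and the 5 genes most correlated with GAPDH, of which 1 is not reported here. The 3 counts that an observed 0 allows correspond to 0.0564 to 0.0999 CPM, which covers counting error only. The ratios to GAPDH and the shares of isoenzymes were added after levels were seen. Genes with a pseudogene named above or an overlapping gene are named with it. Spike-in sequences had 0 counts and were not used.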

Additional observations from a re-analysis of the deposited data

How the results depend on the processing

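Over 23 alternatives, the log2 fold changes of the 10 genes kept their direction and their side of FDR < 0.05 in 193 of 230 cases, came to pass in 21 and changed sign in 16. The number past FDR < 0.05 was 0 by limma-voom (edgeR's quasi-likelihood test 0, both with 6 at an unadjusted p under 0.05), 2 by DESeq2, 10 by voomWithQualityWeights, 3 with the GC trend removed and 4 with that trend removed and CTCF-dRBR replicate 1 left out. Leaving out 1 library at a time gave 0 to 2, with 2 only without CTCF-dRBR replicate 1. The other lists (other enzymes, transporters, regulatory enzymes, pyruvate entry and hypoxia pathway) held 50 tested genes. Of these, 0 passed by limma-voom, 5 by DESeq2, 32 by voomWithQualityWeights, 10 with the GC trend removed and 19 with CTCF-dRBR replicate 1 also left out. In the last 4 fits 11.5%, 68.2%, 9.38% and 24.4% of all genes passed. From 0 to 2 passed with 1 library left out, with 2 without CTCF-dRBR replicate 1, where 3.90% of all genes passed. Those 2 were the hypoxia pathway genes HIF1AN and BNIP3L. The hypoxia pathway also held 3 higher and 1 lower of those past by DESeq2, and 3 higher and 2 lower with the GC trend removed. The median log2 fold change of the 10 genes, −0.53, was −0.42 by voomWithQualityWeights, −0.013 in both TPM fits, −0.30 with the GC trend removed, −0.19 with that and CTCF-dRBR replicate 1 left out, and −0.73 to −0.32 with 1 library left out, the ends being without CTCF-dRBR replicate 3 and replicate 1.

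With log2(TPM + 1), which put the median over all genes at 0.40, signs turned for PKM (0.55), LDHA (0.31), ENO1 (0.18), PFKL (0.16) and PGAM1 (0.0018). With log2(TPM + 0.1), which put it at 0.54, they turned for PKM (0.55), LDHA (0.31), ENO1 (0.18), PFKL (0.17) and PGAM1 (0.0020), and in TPM over protein-coding genes for PKM (0.089). With the GC trend removed they turned for PFKL (0.27) and PKM (0.037), and for PFKL (0.21) also without CTCF-dRBR replicate 1. The causes were not tested.

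The labels give same-numbered libraries only a number in common. Their deviations from their group means correlated at −0.34, 0.099 and −0.47. With 3 libraries a group these deviations depend on each other, so they cannot show whether same-numbered libraries were prepared together. With the replicate block the median was −0.53 and 0 genes passed. With the replicate block and the GC trend removed it was −0.30, with 0 genes past, PFKL at 0.27 and PKM at 0.035. Precision is limited by 3 libraries a group, of which CTCF-dRBR replicate 1 stands apart, and the smallest library held 30034505 counts.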

Other observations

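The share of a step's transcripts that came from the listed isoenzyme was computed from TPM within each library, so that scaling between libraries cancels. A library's trend over GC content and its effective lengths differ between genes and do not cancel. ADPGK, listed above for the same step, was not counted with the hexokinases. It was above HK2 in TPM in every library, at 20.05, 23.4 and 40.6 in CTCF-WT and 49.2, 41.5 and 30.9 in CTCF-dRBR. HK2 made up 73.0%, 75.6% and 72.5% of hexokinase TPM in CTCF-WT replicates 1, 2 and 3 and 63.1%, 63.8% and 60.5% in CTCF-dRBR. HK1 made up nearly all of the rest. The groups did not overlap, in CTCF-dRBR replicate 1 or in the others. LDHA made up 34.0%, 30.3% and 30.6% of lactate dehydrogenase TPM in CTCF-WT and 24.9%, 26.8% and 26.8% in CTCF-dRBR, the rest being LDHB, and these did not overlap either. In CTCF-dRBR replicate 1, where LDHA alone was at its highest CPM, its share was the lowest. ALDOA held 96.5% to 97.2% of aldolase TPM in CTCF-WT and 90.8% to 94.9% in CTCF-dRBR, also without overlap. PFKL held 22.6% to 29.3% and 19.2% to 28.7% of phosphofructokinase TPM, which overlapped, and ENO1 98.9% to 99.2% and 99.0% to 99.1% of enolase TPM. The exact permutation test (two-sided) gave p = 0.1, the smallest possible with 3 libraries against 3, for HK2, LDHA and ALDOA, 0.5 for PFKL and 1 for ENO1, so none of the 5 shares passed, with adjusted p of 0.167 for the first 3.

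As a reference gene GAPDH varied more than most abundant genes here. The SD of its log2 CPM over the 6 libraries was 0.63, above that of 94.8% of 2096 genes with a mean of at least 100 CPM, whose median SD was 0.23. Without CTCF-dRBR replicate 1 its SD was 0.19, above 71.6% of them. LDHA, at 0.22 with all 6 libraries, was above 48.0% of them, and ALDOA, at 0.67, above 95.5%. Without CTCF-dRBR replicate 1 both were above GAPDH, LDHA at 0.21 (above 77.1% of the abundant genes) and ALDOA at 0.22 (above 77.6%).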
